A study of Arabidopsis thaliana with 12 samples.

Results

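Double mutant sdg8hub2 seedlings were set against single mutant sdg8 seedlings, a comparison that asks what the loss of HUB2 does to transcripts when SDG8 is already missing. The arrays were chosen by their titles alone, 3 of sdg8hub2 and 3 of sdg8, which makes 6 of the 12 arrays of the series. The other 6 arrays, 3 of the hub2 single mutant and 3 of wild type (WT), served to measure the loss of HUB2 with SDG8 present. All plants were Arabidopsis thaliana of the Columbia ecotype, whole seedlings 6 days old, grown at 22 °C under long days (16 h light, 8 h dark). Every sdg8hub2 and sdg8 plant thus carried the sdg8 mutation, and the groups of this pair differed in HUB2. The labels name the mutated genes and no allele, so loss of a gene here means the labelled mutation, and they call the 3 arrays of a group biological replicates.

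HUB2 is a RING-type ligase that works with its partner HUB1 to attach ubiquitin to histone H2B, a mark laid down over transcribed genes. SDG8 is a methyltransferase that adds methyl groups to lysine 36 of histone H3, a mark also found over transcribed genes. In Arabidopsis both proteins are known for promoting the expression of floral repressors, and both marks accompany RNA polymerase II during elongation.

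Values are intensities of Affymetrix 3' expression arrays, on which a probe set reads the transcripts of a gene, and differences are on the log2 scale. A probe set was called where limma's moderated test gave a Benjamini-Hochberg adjusted p under 0.05 over the 18196 probe sets tested, and "rose", "fell", "higher" and "lower" without a value refer to that call. Root mean square distances between arrays were 0.229 to 0.240 log2 units among the sdg8hub2 arrays and 0.225 to 0.256 among the sdg8 arrays, against 0.370 to 0.401 between both groups, so the groups stood apart as wholes. The 3'-to-5' log2 difference of the actin control, a sign of RNA integrity, was 1.29 ± 0.27 in sdg8hub2 and 1.23 ± 0.02 in sdg8 (SD, n = 3 each; exact permutation test, two-sided, p = 0.7, smallest possible 0.1). In whole seedlings, fewer cells of a type and less RNA per cell cannot be told apart. Probe sets for SDG8, HUB2 and the floral repressor FLC carry no name in the annotation used and were not analysed here, so the mutated genes themselves were not checked.

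Loss of HUB2 without SDG8 moved 2623 of the 18196 probe sets, 14.4% of those tested. Of these, 1219 (6.7% of those tested) were higher in sdg8hub2 and 1404 (7.72%) were lower. Of the called probe sets, 262 were at least 2-fold higher and 169 at least 2-fold lower, but without sdg8hub2 replicate 3 these counts were 201 and 206. The median difference over all probe sets was -0.01. The 3 arrays of sdg8hub2 lay wholly above or wholly below the 3 of sdg8 for 29.5% of the probe sets. Which direction prevailed among all calls depended on the scaling, since 46.5% of the called probe sets were higher as deposited, 50.2% after quantile normalization, 53.0% after median centring and 50.2% without sdg8 replicate 3. The 15 highest and 15 lowest differences described below were picked among genes whose arrays did not overlap between sdg8hub2 and sdg8, so the lack of overlap in those genes was set by the choice and adds no support.

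**Figure D1:**
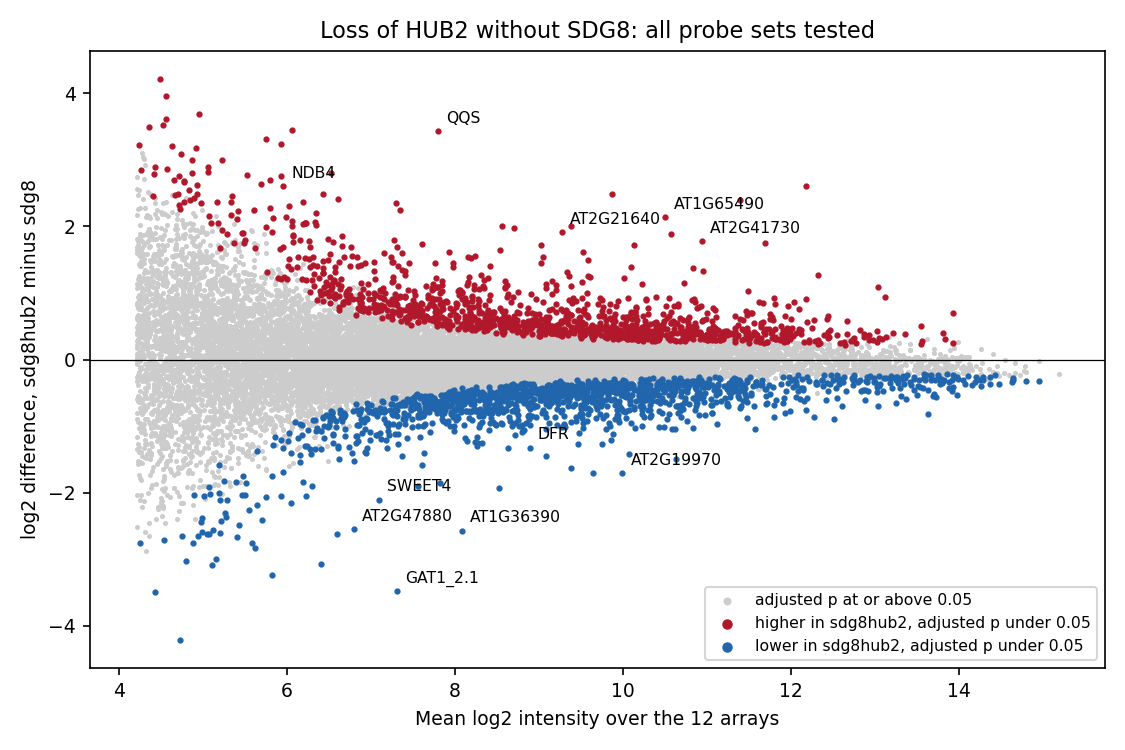
Log2 difference of sdg8hub2 minus sdg8 (vertical axis) against the mean log2 intensity over the 12 arrays (horizontal axis) for the 18196 probe sets tested. Red points (1219) were higher and blue points (1404) lower in sdg8hub2. The named points include QQS at 3.43 and GAT1_2.1 at -3.47.

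Genes of the mitochondrial retrograde response took 8 of the 15 places among the highest differences described here. These nuclear genes are known in Arabidopsis as targets of the membrane-bound factors ANAC013 and ANAC017, which enter the nucleus when mitochondria are impaired. Of 12 such genes measured, 10 rose and 0 fell, where 6.23% of the 10115 named genes rose and 6.9% fell (13.1% in all). Their median difference was 1.85, beside -0.01 over all probe sets tested. The list was written with the strongest genes of these data already known, so its direction is not independent evidence. The median log2 level of the 12 genes was 10.34, 10.49 and 10.22 on the sdg8hub2 arrays, against 8.69, 8.81 and 9.11 on the sdg8 arrays. The same medians were 7.17, 7.86 and 7.49 on the hub2 arrays, against 7.14, 7.26 and 6.94 on the WT arrays, so sdg8 seedlings already stood above WT and sdg8hub2 seedlings stood above them.

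AT2G21640 encodes a mitochondrial protein known as a marker of oxidative stress. It had 3718, 4692 and 3469.8 intensity units on the sdg8hub2 arrays, against 1024, 1086 and 1010.0 units on the sdg8 arrays. The sdg8 arrays were close together, and the log2 difference was 1.92 ± 0.13 (SE, adjusted p = 2.20e-09). AT5G09570, a small twin-cysteine protein of mitochondria, had 2979, 2825 and 2891 units in sdg8hub2, against 624, 822 and 788 units in sdg8. The sdg8hub2 arrays were close together and far above the others, with a difference of 1.97 ± 0.16 (SE, adjusted p = 2.92e-08). AT2G41730, another member, had 9213, 10572 and 8939 units in sdg8hub2, against 2625, 3091 and 2671 units in sdg8. Its difference of 1.78 ± 0.10 (SE, adjusted p = 2.27e-10) comes from a probe set that can also bind related sequences.

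NDB4 encodes an alternative NAD(P)H dehydrogenase, an enzyme that feeds the respiratory chain without pumping protons. It had 559, 681 and 502 units in sdg8hub2, against 62.5, 90.5 and 150.3 units in sdg8, a difference of 2.60 ± 0.53 (SE, adjusted p = 0.00189). The sdg8 arrays spread more widely than those of the genes above. AT2G04050 and AT2G04070 encode MATE-type efflux carriers, which export metabolites and toxins. AT2G04050 had 1711, 1671 and 1837 units in sdg8hub2, against 403, 380.2 and 530.4 units in sdg8 (2.01 ± 0.16 SE, adjusted p = 3.04e-08). AT2G04070 had 357, 305 and 359 units in sdg8hub2, against 69.0, 61.7 and 52.4 units in sdg8 (2.49 ± 0.26 SE, adjusted p = 1.23e-06). For both carriers all sdg8hub2 arrays were high and all sdg8 arrays low.

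Another 4 members rose. AT2G03130, a protein of the ribosomal L12 and ClpS family, had 337, 347 and 405 units in sdg8hub2, against 98.6, 68.1 and 62.01 units in sdg8 (2.28 ± 0.44 SE, adjusted p = 0.00109). AT2G32020, a GNAT-type acetyltransferase, had 569, 753 and 679.8 units in sdg8hub2, against 189, 197 and 214 units in sdg8 (1.73 ± 0.19 SE, adjusted p = 1.38e-06). AT5G51440, a small heat shock protein of mitochondria, differed by 1.12 ± 0.19 (SE, adjusted p = 0.000372), and AT5G43450, a 2-oxoglutarate-dependent oxygenase, by 0.93 ± 0.11 (SE, adjusted p = 3.70e-06). The members that did not pass were NDB2, with a difference of 0.33 ± 0.15 (SE, adjusted p = 0.156), and GSTU25, a tau-class glutathione transferase, with 0.14 ± 0.11 (SE, adjusted p = 0.453). Under the other settings tried, between 7 and 10 members were higher. NDB4, AT2G04070 and AT2G03130 were not tested in every setting, and each kept its call in all 17 that tested it.

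Of the alternative NAD(P)H dehydrogenases, 5 genes were measured, of which 2 rose and 0 fell, with a median of 0.33. Besides NDB4 this was NDB3, with 169, 181 and 232 units in sdg8hub2, against 40.3, 54.7 and 67.8 units in sdg8 (1.85 ± 0.55 SE, adjusted p = 0.0261). NDB1 and NDC1 had differences of -0.25 (adjusted p = 0.344) and 0.02 (adjusted p = 0.947). The NDB3 call was lost in several settings. Its adjusted p was between 0.0577 and 0.0926 when any 1 array other than sdg8 replicate 3 was left out. NDB4 kept its call in all 17 settings that tested it. The number of higher genes here was 0 only with a stricter filter, which left NDB3 and NDB4 untested, and otherwise 1 or 2. Of 13 mitochondrion-encoded genes measured, 1 rose, ccb382, a cytochrome c maturation gene, with 0.63 ± 0.14 (SE, adjusted p = 0.00307), and their median was 0.43.

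**Figure D2:**
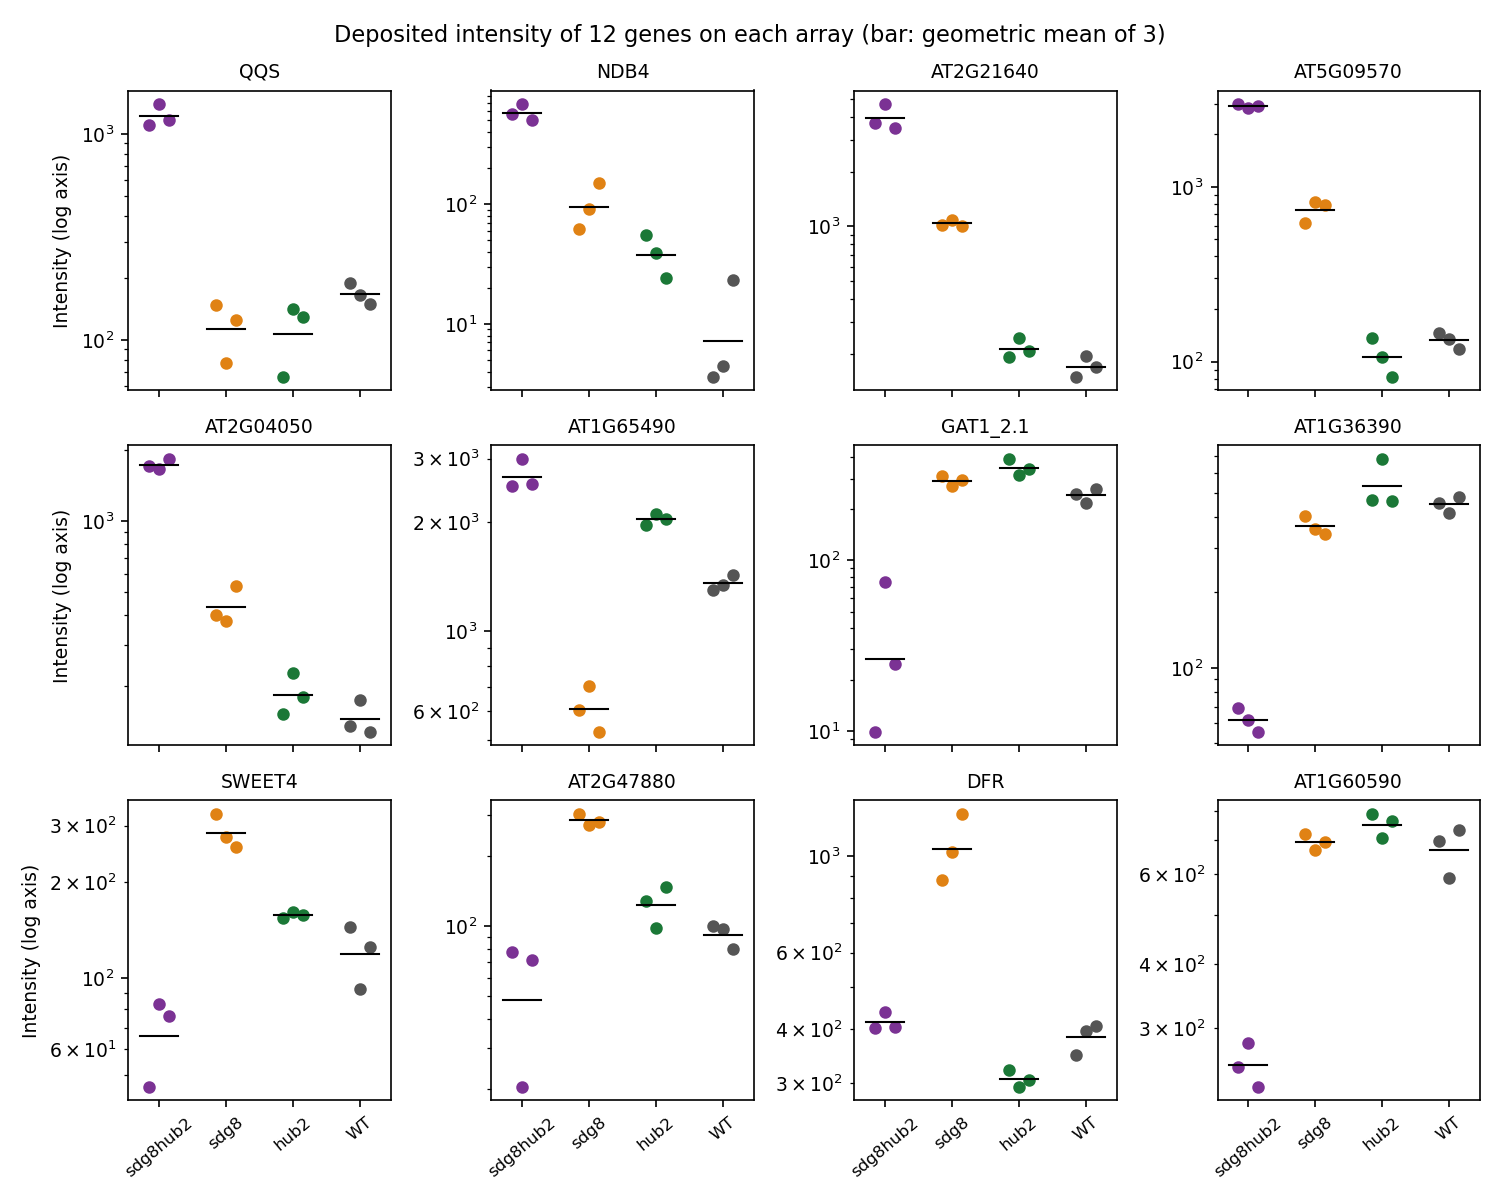
Deposited intensity (vertical log axis, arbitrary units) of 12 genes on each of the 12 arrays, with sdg8hub2, sdg8, hub2 and WT from left to right and a bar at the geometric mean of 3 arrays. In the first 6 panels the sdg8hub2 arrays lie above the sdg8 arrays, and in the last 6 they lie below them.

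Other genes at the top of the higher side came from varied families. QQS, an orphan gene of Arabidopsis that shifts carbon between starch and protein, had 1101, 1396 and 1175 units in sdg8hub2, against 148, 77.7 and 125 units in sdg8. The sdg8hub2 arrays stood 10.8-fold above sdg8, with a difference of 3.43 ± 0.25 (SE, adjusted p = 3.93e-09), while the hub2 arrays at 66.2, 141 and 129.7 units and the WT arrays at 190.1, 165 and 150.04 units were both low. AT5G60250, a RING-type zinc finger gene, had 258, 248 and 238 units in sdg8hub2, against 44.9, 19.97 and 54.4 units in sdg8 (2.76 ± 0.40 SE, adjusted p = 5.11e-05). AT3G28500, an acidic ribosomal protein of the P2 type, had 299, 365 and 341 units in sdg8hub2, against 70.01, 69.6 and 116 units in sdg8 (2.02 ± 0.36 SE, adjusted p = 0.000523). In both AT5G60250 and AT3G28500 the sdg8 arrays spread more than the sdg8hub2 arrays.

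AT1G52100 and AT1G33790 encode lectins of the jacalin family, which bind sugars. AT1G52100 had 1106, 1505 and 1087 units in sdg8hub2, against 399.5, 265 and 268 units in sdg8 (2.00 ± 0.15 SE, adjusted p = 7.90e-09). AT1G33790 had 269, 266 and 324 units in sdg8hub2, against 190.1, 125 and 23.0 units in sdg8 (1.80 ± 0.44 SE, adjusted p = 0.00753). The value on sdg8 replicate 3 was the lowest, and the difference of AT1G33790 was 0.89 without that array. Its call was lost when the variance was not allowed to follow the intensity (no intensity trend) and with robust variance estimates (adjusted p = 0.0939 and 0.0647). AT1G65490 had 2515, 2989.8 and 2546 units in sdg8hub2, against 605, 705 and 526 units in sdg8 (2.14 ± 0.11 SE, adjusted p = 1.09e-11). AT5G55620 had 2365, 2358 and 2508 units in sdg8hub2, against 630.4, 825 and 748 units in sdg8 (1.72 ± 0.12 SE, adjusted p = 2.20e-09).

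Among the strongest falls were genes of sugar and nitrogen metabolism. GAT1_2.1 encodes a glutamine amidotransferase known to respond to carbon and nitrogen supply. One of its probe sets had 9.89, 74.3 and 24.7 units in sdg8hub2, against 313, 271 and 293 units in sdg8. All sdg8hub2 arrays were lower, but they spread widely, and the difference of -3.47 ± 0.41 (SE, adjusted p = 4.13e-06) was -2.77 when replicate 1 of sdg8hub2 was left out and -4.22 when replicate 2 was. The other probe set of GAT1_2.1, whose sdg8hub2 mean was near the background (under 18.6 units), had 44.3, 4.77 and 13.6 units in sdg8hub2, against 21.1, 33.5 and 27.5 units in sdg8, and did not pass (-0.92 ± 0.79 SE, adjusted p = 0.498). SWEET4, a sugar carrier of the SWEET family, had 45.8, 82.9 and 76.4 units in sdg8hub2, against 326, 275 and 258 units in sdg8 (-2.11 ± 0.23 SE, adjusted p = 2.26e-06).

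Of 17 genes for carbon starvation and sugar handling, 2 rose and 3 fell, with a median of 0.08. Those that rose were QQS and SWEET1 (0.47 ± 0.11 SE, adjusted p = 0.00456), and those that fell were GAT1_2.1, SWEET4 and SWEET2. SWEET2, a vacuolar sugar carrier, had 824, 776 and 925 units in sdg8hub2, against 1271, 1306 and 1537 units in sdg8 (-0.70 ± 0.11 SE, adjusted p = 0.000117). The list thus moved in both directions, and the other SWEET genes on it did not pass. SWEET15, which the files name SAG29, was not on the list and was higher (1.53 ± 0.30 SE, adjusted p = 0.00136).

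Of 10 genes for nitrogen response, 1 rose and 3 fell, with a median of -0.23. All 3 that fell encode small glutaredoxins of the class found in land plants, some of which carry signals of nitrogen demand from shoot to root. AT2G47880, known as CEPD2, had 77.0, 20.5 and 71.8 units in sdg8hub2, against 302, 272 and 279 units in sdg8 (-2.55 ± 0.35 SE, adjusted p = 3.02e-05). The lowest value came from sdg8hub2 replicate 2, and the difference was -1.93 without it. AT1G06830 had 420.2, 459 and 415 units in sdg8hub2, against 644, 716 and 829 units in sdg8 (-0.75 ± 0.12 SE, adjusted p = 0.000251). AT4G15660 had 28.1, 67.0 and 47.4 units in sdg8hub2, against 100.3, 97.6 and 122 units in sdg8 (-1.25 ± 0.32 SE, adjusted p = 0.00985), a call that was lost without sdg8hub2 replicate 1 (adjusted p = 0.0653). AT2G30540, a glutaredoxin outside the list, had 117, 92.7 and 114 units in sdg8hub2, against 309.5, 261 and 281 units in sdg8 (-1.40 ± 0.16 SE, adjusted p = 3.85e-06). The gene that rose was NRT2.5, a high-affinity nitrate carrier, with 52.6, 41.3 and 34.4 units in sdg8hub2, against 17.6, 4.36 and 8.89 units in sdg8 (2.26 ± 0.74 SE, adjusted p = 0.0439). Its sdg8 mean was near the background, its difference was 0.52 as log2(intensity + 64), and the call was lost without any one of sdg8hub2 replicates 1 to 3 (adjusted p = 0.140, 0.103 and 0.0712) and sdg8 replicates 2 and 3 (0.121 and 0.0636).

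AT1G36390 encodes a GrpE-type co-chaperone, a partner of Hsp70 proteins. It had 69.4, 61.8 and 55.5 units in sdg8hub2, against 406, 358 and 344 units in sdg8 (-2.57 ± 0.16 SE, adjusted p = 7.25e-10). AT1G36380, next to it on the chromosome, had 98.4, 102 and 100.4 units in sdg8hub2, against 344, 536 and 302 units in sdg8 (-1.93 ± 0.17 SE, adjusted p = 8.76e-08). Both genes were low on all sdg8hub2 arrays, and their gene models overlap in the TAIR10.1 gene table. AT1G50140, an AAA-type ATPase, had 86.6, 114 and 44.6 units in sdg8hub2, against 272, 267 and 313 units in sdg8 (-1.90 ± 0.24 SE, adjusted p = 1.46e-05). Another probe set of AT1G50140 did not pass (-0.87 ± 0.59 SE, adjusted p = 0.37).

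Further falls at the bottom of the ranking came from genes of varied kinds. AT2G19970, of the family of pathogenesis-related PR-1 proteins, had 791, 758 and 782 units in sdg8hub2, against 2746, 2167 and 2769 units in sdg8 (-1.71 ± 0.13 SE, adjusted p = 5.40e-09). AT4G39675 had 344, 424 and 266 units in sdg8hub2, against 1018, 1038 and 1261 units in sdg8 (-1.70 ± 0.15 SE, adjusted p = 9.28e-08). AT5G25475, a transcription factor of the B3 family, had 102, 107 and 114 units in sdg8hub2, against 318, 339 and 312 units in sdg8 (-1.58 ± 0.19 SE, adjusted p = 6.82e-06). AT1G60590, a pectin-cutting enzyme of the polygalacturonase family, had 252, 280.4 and 229.8 units in sdg8hub2, against 719, 668 and 694 units in sdg8 (-1.45 ± 0.12 SE, adjusted p = 3.04e-08). Among these 4 genes the sdg8hub2 arrays were closest together for AT2G19970.

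Genes of anthocyanin and flavonoid synthesis, the pathway of red and purple pigments, were mostly lower. Of 6 measured, 4 fell and 0 rose, and the median was -0.98. DFR, the dihydroflavonol reductase at the entry to anthocyanins, had 402, 438 and 405 units in sdg8hub2, against 879.8, 1019.7 and 1249 units in sdg8 (-1.32 ± 0.13 SE, adjusted p = 4.52e-07). UF3GT, which adds xylose to anthocyanins, had 123.49, 72.3 and 157 units in sdg8hub2, against 288, 372 and 271 units in sdg8 (-1.46 ± 0.23 SE, adjusted p = 0.000186). AT4G14090, an anthocyanin glucosyltransferase, had 121, 98.7 and 71.1 units in sdg8hub2, against 290.4, 270.0 and 203 units in sdg8 (-1.41 ± 0.26 SE, adjusted p = 0.000639). In UF3GT and AT4G14090 the sdg8hub2 arrays spread more than in DFR. CHIL, a helper of chalcone isomerase, differed by -0.47 ± 0.12 (SE, adjusted p = 0.0083), a call lost without sdg8hub2 replicate 1 (adjusted p = 0.0614). AT5MAT, an anthocyanin malonyltransferase, differed by -0.64 ± 0.28 (SE, adjusted p = 0.139), and UGT78D2, a flavonoid glucosyltransferase, by -0.04 ± 0.13 (SE, adjusted p = 0.886), and neither passed. Against WT, sdg8 was higher by 1.44 for DFR, 0.82 for UF3GT, 1.09 for AT4G14090 and 0.71 for CHIL. The differences of sdg8hub2 minus WT were 0.11, -0.63, -0.32 and 0.25, and none passed (adjusted p = 0.616, 0.0655, 0.44 and 0.156). The falls in these 4 genes were thus from levels raised in sdg8. The direction of the list was already visible in earlier results on these arrays.

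Iron deficiency genes, which control iron uptake, fell in 3 of 4 cases, with a median of -0.54. BHLH101, a transcription factor of the uptake programme, had 427, 434 and 354 units in sdg8hub2, against 890.5, 1158 and 949 units in sdg8 (-1.30 ± 0.16 SE, adjusted p = 1.05e-05). AT1G47400, which encodes the signalling peptide IMA1, had 2359, 2482 and 2590.1 units in sdg8hub2, against 4033, 4051 and 3587 units in sdg8 (-0.65 ± 0.10 SE, adjusted p = 0.000111). PYE, another transcription factor of the programme, had 543, 546 and 422 units in sdg8hub2, against 631, 781 and 625 units in sdg8 (-0.43 ± 0.14 SE, adjusted p = 0.0425). Each of the 3 was higher on all arrays of the mutants lacking SDG8 than on any hub2 or WT array. The PYE call was lost without any one of sdg8hub2 replicates 1 and 3 and sdg8 replicates 1 and 2 (adjusted p = 0.0505, 0.204, 0.0541 and 0.198). AT1G74770, a hemerythrin-type ligase that restrains iron uptake, differed by 0.29 ± 0.21 (SE, adjusted p = 0.412) and did not pass.

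Cold and abscisic acid genes fell in 3 of 7 cases and rose in 0, with a median of -0.33. COR27, a regulator of cold response and clock, had 1006, 1119 and 1042 units in sdg8hub2, against 2132, 2193 and 2067 units in sdg8 (-1.01 ± 0.09 SE, adjusted p = 1.88e-07). COR15B, a chloroplast protein that protects membranes against freezing, had 756, 848 and 906 units in sdg8hub2, against 2180.3, 1524 and 1543 units in sdg8 (-1.05 ± 0.12 SE, adjusted p = 4.59e-06). LTI30, a dehydrin, had 856, 1053 and 922 units in sdg8hub2, against 1487, 1781 and 1884 units in sdg8 (-0.86 ± 0.10 SE, adjusted p = 6.82e-06). For all 3 the groups did not overlap, while COR15A (-0.33 ± 0.14 SE, adjusted p = 0.133) and COR47 (-0.22 ± 0.10 SE, adjusted p = 0.146) did not pass.

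**Figure D3:**
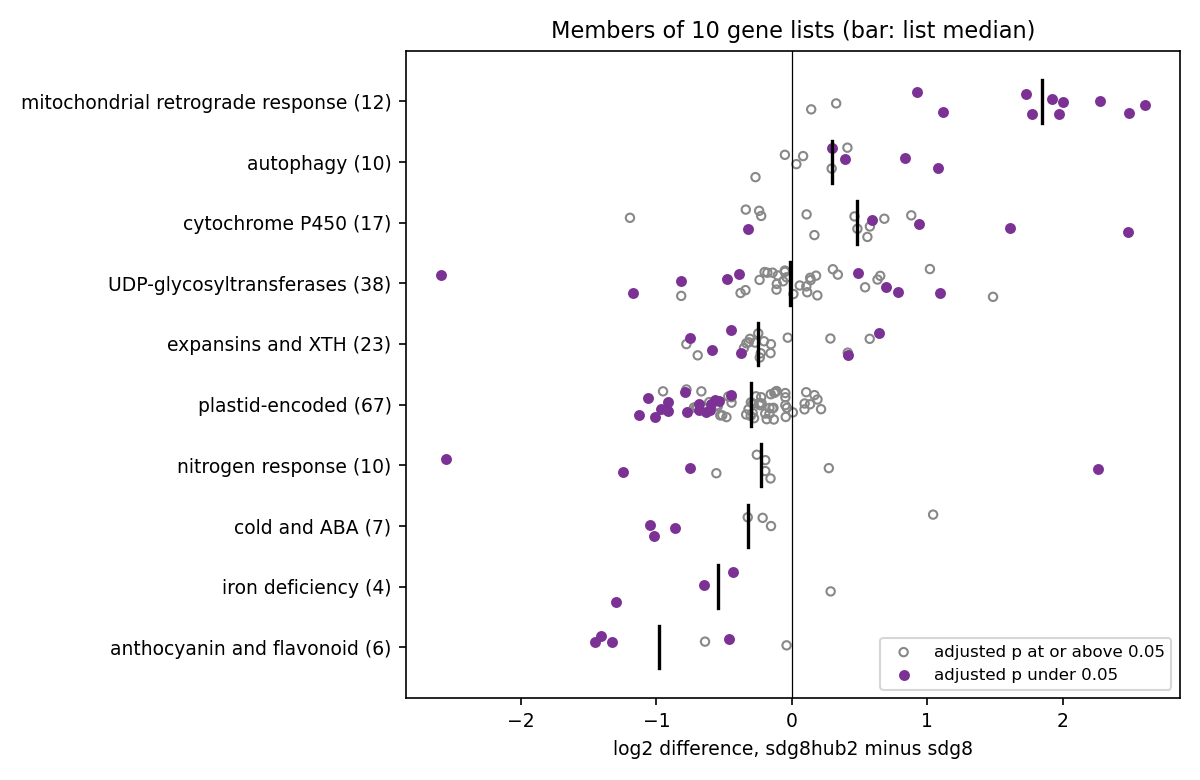
Log2 difference of sdg8hub2 minus sdg8 for the measured members of 10 gene lists (number in brackets), each a point, filled where the adjusted p was under 0.05, with a bar at the list's median. Vertical scatter within a row has no meaning. The retrograde list has its median at 1.85 and the anthocyanin list at -0.98.

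A minority of the plastid-encoded genes passed, all of them lower. Of 67 measured among 69 in the annotation, 16 fell and 0 rose, 59 had a negative difference, and the median was -0.30. By complex, 3 of 5 photosystem I genes, 4 of 15 photosystem II genes, 1 of 6 cytochrome b6f genes, 2 of 6 ATP synthase genes, 0 of 9 NDH genes, 1 of 4 RNA polymerase genes and 3 of 14 ribosomal protein genes fell. The medians of these complexes ran between -0.60 for photosystem I and -0.18 for RNA polymerase. Against WT, their medians ran between 0.13 and 0.43 in sdg8 and between -0.23 and 0.11 in sdg8hub2. psaB, a core protein of photosystem I, had 9209, 7584 and 9063 units in sdg8hub2, against 12404, 14671 and 12008 units in sdg8 (-0.60 ± 0.09 SE, adjusted p = 0.000139). The gene psbC, for a core antenna protein of photosystem II, had 992, 926 and 893 units in sdg8hub2, against 1518, 1436 and 1313 units in sdg8 (-0.60 ± 0.12 SE, adjusted p = 0.00104). Both were low on all sdg8hub2 arrays.

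cemA, a protein of the chloroplast envelope, had 388, 659.5 and 451 units in sdg8hub2, against 826, 877 and 1301 units in sdg8 (-1.01 ± 0.19 SE, adjusted p = 0.000776). rps19, a plastid ribosomal protein, had 274, 394 and 195 units in sdg8hub2, against 507, 545 and 795 units in sdg8 (-1.13 ± 0.23 SE, adjusted p = 0.00189). rbcL, the large subunit of Rubisco, differed by -0.45 ± 0.14 (SE, adjusted p = 0.0343) with overlapping groups. The median log2 level of the 67 genes was 8.88, 9.37 and 8.82 on the sdg8hub2 arrays, against 9.69, 9.78 and 10.24 on the sdg8 arrays, so all sdg8hub2 arrays were below. The WT arrays, at 9.43, 9.78 and 9.19, overlapped the range of both groups. The count of lower genes was 10 without the filter on dim probe sets, 8 without the intensity trend, 6 without sdg8hub2 replicate 1 and 9 without sdg8 replicate 2, and it was 22 with the actin difference as a covariate. Plastid transcripts largely lack long poly(A) tails, so their signal on these arrays can depend on the labelling method, whose part in the result was not tested.

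**Figure D4:**
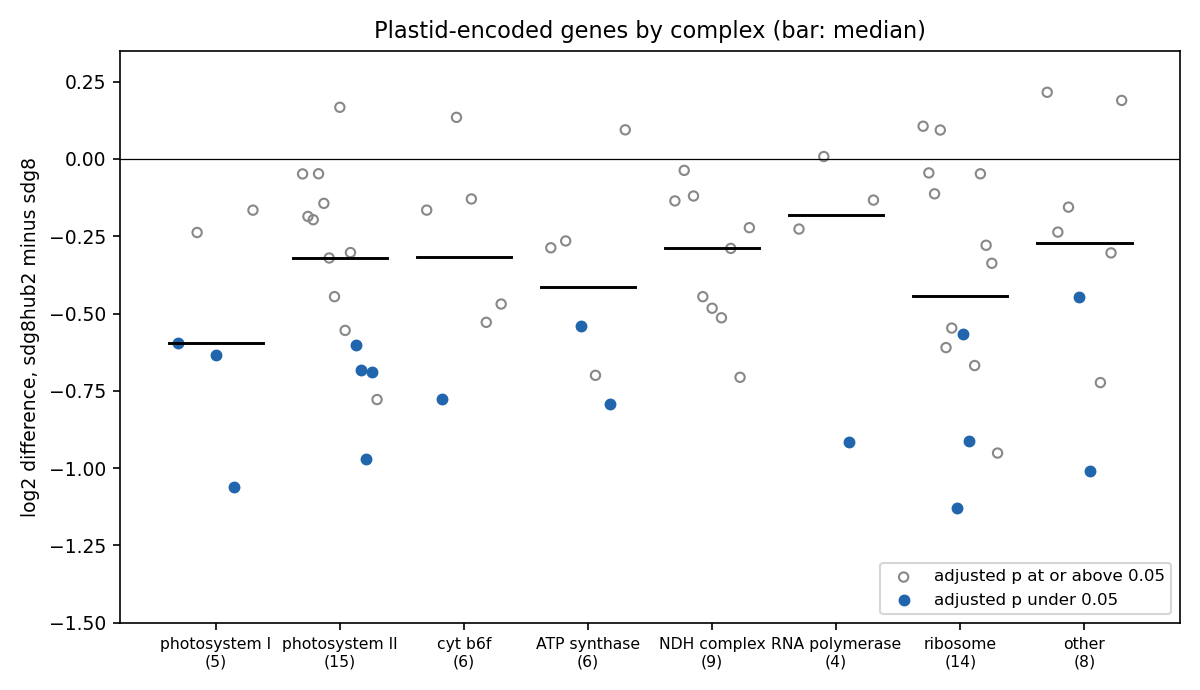
Log2 difference of sdg8hub2 minus sdg8 for 67 plastid-encoded genes grouped by complex (number in brackets), with filled points where the adjusted p was under 0.05 and a bar at each median. All 16 filled points lie below 0, and 8 open points lie above it.

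Nuclear genes of the photosystems and antennae came next. Of 7 nuclear photosystem and antenna genes, 2 fell and 0 rose, with a median of -0.15, and 5 had a negative difference. The 2 positive ones were antenna genes that did not pass, LHCB4.2 (0.25 ± 0.09 SE, adjusted p = 0.0686) and LHCB4.3 (0.22 ± 0.11 SE, adjusted p = 0.209). Without sdg8 replicate 1 or sdg8 replicate 2, 1 gene of the list was higher. LHCB4.1, an antenna protein of photosystem II, had 17930.4, 17835 and 18084 units in sdg8hub2, against 22602, 25817 and 22678 units in sdg8 (-0.40 ± 0.08 SE, adjusted p = 0.0017). PSBY differed by -0.28 ± 0.09 (SE, adjusted p = 0.0397), a call lost in most settings, among them without any one of sdg8hub2 replicates 2 and 3 and sdg8 replicates 2 and 3 (adjusted p = 0.0946, 0.181, 0.193 and 0.0728). Of 8 chlorophyll synthesis genes (median 0.01), 1 rose, PORB, a light-dependent protochlorophyllide reductase, with 0.68 ± 0.08 (SE, adjusted p = 8.26e-06).

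Autophagy genes, which build the vesicles that carry cell material to the vacuole, rose in 4 of 10 cases and fell in 0, with a median of 0.29. All 4 encode ATG8, the small ubiquitin-like protein that coats these vesicles. ATG8B had 708, 722 and 725 units in sdg8hub2, against 406, 356 and 273 units in sdg8 (1.08 ± 0.13 SE, adjusted p = 4.94e-06), and ATG8D had 873, 993 and 1113 units in sdg8hub2, against 593, 562 and 505 units in sdg8 (0.84 ± 0.12 SE, adjusted p = 4.33e-05). For both the sdg8 arrays were the low ones, with the hub2 arrays at 626, 643 and 591 units for ATG8B and the WT arrays at 553, 602 and 574 units. ATG8E and ATG8C differed by 0.39 (adjusted p = 0.0248) and 0.30 (adjusted p = 0.0492), and the ATG8C call was lost in 13 settings. The count was 2 without the intensity trend, and without any one of sdg8hub2 replicates 2 and 3 and sdg8 replicate 3.

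Enzyme families with many members moved in both directions. Of 17 cytochrome P450 genes, which oxidise plant metabolites, 4 rose and 1 fell, with a median of 0.48. CYP71B5 had 290.0, 297 and 254 units in sdg8hub2, against 55.1, 146 and 95.5 units in sdg8 (1.61 ± 0.23 SE, adjusted p = 5.95e-05), and CYP71B26 differed by 0.94 ± 0.21 (SE, adjusted p = 0.0044). CYP71B34 (0.59 ± 0.17 SE, adjusted p = 0.0226) and CYP71B36 (0.34 as log2(intensity + 64), from an sdg8 mean near the background) completed the higher genes. CYP71B6 was the lower one (-0.32 ± 0.10 SE, adjusted p = 0.0328). The higher count was 2 with a stricter filter, with only the 6 arrays in the fit, and without any one of sdg8hub2 replicate 2 and sdg8 replicates 2 and 3. CYP71B6 was not called after either rescaling.

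Of 38 UDP-glycosyltransferases, which attach sugars to small molecules, 4 rose and 5 fell, with a median of -0.01. Without the intensity trend 2 rose and 3 fell, and 3 fell without sdg8hub2 replicate 2 or replicate 3. UGT88A1 had 2684, 1766 and 2020.4 units in sdg8hub2, against 1315, 1206 and 1175 units in sdg8 (0.79 ± 0.11 SE, adjusted p = 5.74e-05). UGT76B1, which conjugates the defence signals salicylic acid and isoleucic acid, had 90.2, 109.5 and 84.5 units in sdg8hub2, against 264, 225 and 162 units in sdg8 (-1.18 ± 0.21 SE, adjusted p = 0.000519). UGT85A4 and UGT71C4 differed by -0.81 ± 0.17 (SE, adjusted p = 0.00251) and -0.48 ± 0.11 (SE, adjusted p = 0.0038). Of 12 glutathione transferases (median 0.08), 1 rose, GSTU16 (0.38 ± 0.13 SE, adjusted p = 0.0465), with overlapping groups and a call that was lost in 9 settings. Of 23 expansins and XTH enzymes, which loosen cell walls, 2 rose and 4 fell, with a median of -0.25. XTH32 (0.64 ± 0.11 SE, adjusted p = 0.000352) and EXLA1 (0.42 ± 0.10 SE, adjusted p = 0.0084) rose, and EXPA16 (-0.75 ± 0.15 SE, adjusted p = 0.00189) and EXPA15 (-0.59 ± 0.15 SE, adjusted p = 0.0118) were among those that fell, the EXPA15 call being lost without sdg8 replicate 3 (adjusted p = 0.0893). The lower count among wall enzymes was 1 without the intensity trend or without sdg8 replicate 3, and 2 after median centring or without sdg8hub2 replicate 2 or sdg8 replicate 2.

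Defence peptides of the jasmonate and ethylene pathway split. Of 5 genes, 1 rose and 2 fell, with a median of -0.65. PDF1.2, a defensin and marker of that pathway, had 81.3, 70.8 and 97.4 units in sdg8hub2, against 199, 171 and 118 units in sdg8 (-0.95 ± 0.19 SE, adjusted p = 0.00165). PDF1.2b had 179, 116 and 282 units in sdg8hub2, against 294, 286 and 267 units in sdg8 (-0.65 ± 0.20 SE, adjusted p = 0.0343), with overlapping groups, on a probe set that can also bind related defensins. Its call was lost without any one array of either group except sdg8hub2 replicate 3, with adjusted p = 0.227 without sdg8hub2 replicate 2. PDF1.4 was the gene that rose, with 113, 154 and 166 units in sdg8hub2, against 107, 52.8 and 76.5 units in sdg8 (0.91 ± 0.21 SE, adjusted p = 0.00424).

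Lists of chromatin and transcription genes had between 0 and 3 members called. The list for H2B ubiquitination held 4 measured genes, AT3G27100, AT5G58575, UBP22 and UBP26, and none was called (median -0.14). HUB1 and HUB2, which attach the mark, were not among them. UBP22 (0.05 ± 0.15 SE, adjusted p = 0.88) and UBP26 (-0.33 ± 0.24 SE, adjusted p = 0.401) are ubiquitin proteases, which remove ubiquitin. Of 6 histone genes (median -0.12), 1 rose, HTB4, which encodes a histone H2B (0.68 ± 0.11 SE, adjusted p = 0.000127), while HTB1, HTB2 and HTB11 had -0.30, -0.28 and -0.14 and did not pass. Of 12 subunits of nuclear RNA polymerases, 2 rose and 0 fell, with a median of 0.17. These were NRPE7, a subunit of RNA polymerase V (0.80 ± 0.19 SE, adjusted p = 0.00587), and NRPB12, a small polymerase subunit (0.35 ± 0.09 SE, adjusted p = 0.013). Of 16 genes measured among 40 floral pathway and AGAMOUS-like genes, 2 rose and 1 fell, with a median of -0.03. AGL16, a MADS-box repressor of flowering, had 617, 718 and 547 units in sdg8hub2, against 395, 381 and 383 units in sdg8 (0.69 ± 0.12 SE, adjusted p = 0.000601). AGL80 differed by 0.92 ± 0.29 (SE, adjusted p = 0.0349) and AGL87 by -0.96 ± 0.13 (SE, adjusted p = 2.54e-05). The NRPB12 call was lost without sdg8hub2 replicate 2 or sdg8 replicate 2 (adjusted p = 0.0748 and 0.0582). The AGL80 call was lost without any one of sdg8hub2 replicates 2 and 3 and sdg8 replicates 1 and 2 (adjusted p between 0.0628 and 0.152).

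Among the remaining lists, WRKY47 was the 1 of 5 WRKY factors to rise (1.11 ± 0.14 SE, adjusted p = 1.29e-05), RALFL27 the 1 of 9 RALF peptides to fall (-0.68 ± 0.14 SE, adjusted p = 0.00198), and BHLH101 the 1 bHLH factor measured. The 1 class III peroxidase measured, PRX52, was higher, with an sdg8 mean near the background (difference 0.58 as log2(intensity + 64)), its groups overlapped, and the call was lost without any one of sdg8hub2 replicates 1 and 3 and sdg8 replicates 2 and 3. None was called among 2 root hair genes, 1 root gene, 1 seed store gene, 3 Aurora kinase genes of dividing cells, 2 other cell cycle genes, 9 early auxin genes, 1 proteasome gene and 1 NAC factor. All 3 Aurora kinase genes (median -0.24) and both root hair genes (median -0.22) had negative differences, beside 0.04 for the root gene and -0.05 for the seed store gene. In some settings, among them without sdg8hub2 replicate 1 or sdg8 replicate 2, 1 Aurora kinase gene was called lower. The root gene PYK10 had 16936, 14584 and 17448 units in sdg8hub2, against 17982, 14908 and 14886 units in sdg8, and OLEO3, a seed oil body gene, had 39.8, 65.5 and 33.1 units in sdg8hub2, against 34.5, 56.2 and 49.7 units in sdg8. For both the groups overlapped, and the antenna gene LHCB4.1 above was bright on every array, so root and green tissue markers were present in both groups.

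The loss of HUB2 was then measured with SDG8 present, in hub2 against WT, with arrays that the first comparison does not use. Here 519 probe sets were called, 2.85% of those tested, beside 14.4% without SDG8. Among named genes, 1.19% rose and 1.33% fell. The difference between both differences, the interaction, was itself called for 1175 probe sets (6.46%, and 5.5% of the named genes), 555 with a higher and 620 with a lower difference in the absence of SDG8. Of the 2623 probe sets called without SDG8, the interaction was called for 910 (34.7%). The hub2 count depends on the processing: it was 127 without the intensity trend, 233 with the actin 3'-to-5' difference as a covariate and 835 with array weights, and hub2 replicate 2 had the highest actin difference, 2.06. It was 332 without that array, 338 without hub2 replicate 3, and 210, 294 and 247 without WT replicates 1, 2 and 3.

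The signs of the differences matched in part between both backgrounds. Of the 2623 probe sets called without SDG8, 1555 (59.3%) had the same sign with SDG8, and of the 519 called with SDG8, 326 (62.8%) had the same sign without it, while 53.7% of all probe sets tested did. Both comparisons called 216 probe sets, 41.6% of the 519 and 8.23% of the 2623. Among those, 68 were higher and 75 lower in both, 42 were higher without SDG8 and lower with it, and 31 were lower without SDG8 and higher with it. Over all probe sets, which share array chemistry and base composition, Pearson's r between both differences was 0.05.

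Several of the leading genes moved without SDG8 by much more than with it. QQS had a hub2 minus WT difference of -0.65 ± 0.25 (SE, adjusted p = 0.189), and its interaction was 4.09 ± 0.35 (SE, adjusted p = 1.74e-07). GAT1_2.1 had 391, 315 and 344 units in hub2, against 245, 217 and 262 units in WT, and an interaction of -4.01 ± 0.57 (SE, adjusted p = 0.000114). AT1G36390 had 469, 682 and 466 units in hub2, against 457, 417 and 483 units in WT, and an interaction of -2.80 ± 0.23 (SE, adjusted p = 1.05e-07). For these 3 genes all sdg8hub2 arrays lay outside the range of the 9 other arrays. All 3 were picked for a large difference without SDG8, which is part of the interaction, and for no overlap with the sdg8 arrays. The size of their interaction and their separation from sdg8 were thus favoured by the choice and add no support.

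AT3G62220, a protein kinase gene, showed another order of levels. It had 38.7, 46.6 and 56.8 units in sdg8hub2, against 5.07, 2.29 and 10.6 units in sdg8, and 174, 229 and 228 units in hub2, against 288, 266 and 302 units in WT. The sdg8 mean was near the background, the difference was 3.23 ± 0.43 (SE, adjusted p = 2.06e-05) or 0.67 as log2(intensity + 64), and the interaction was 3.68 ± 0.61 (SE, adjusted p = 0.000527). With only the 6 arrays in the fit the gene was not called (adjusted p = 0.105). AT2G17740, a cysteine- and histidine-rich C1 domain gene, had 85.5, 118 and 166 units in sdg8hub2, against 54.4, 60.3 and 66.5 units in sdg8, and 133, 132 and 76.6 units in hub2, against 228, 243 and 248 units in WT. It was higher on loss of HUB2 without SDG8 (0.98 ± 0.26 SE, adjusted p = 0.0131) and lower with it (-1.12 ± 0.26 SE, adjusted p = 0.0209), though the first call was lost without sdg8hub2 replicate 3 (adjusted p = 0.0888). AT1G65500 had 354, 342 and 268 units in sdg8hub2, against 173, 112 and 69.2 units in sdg8, with an interaction of 2.17 ± 0.32 (SE, adjusted p = 0.000166).

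Opposite calls in the other direction included defence and stress genes. PDF1.2 had 658, 668 and 670.4 units in hub2, against 264, 196 and 234 units in WT, so it rose with SDG8 present (1.53 ± 0.19 SE, adjusted p = 6.04e-05) and fell without it, and its interaction was -2.48 ± 0.27 (SE, adjusted p = 3.62e-06). PDF1.2b followed with 1.41 ± 0.20 (SE, adjusted p = 0.000286) in hub2 against WT. COR15B had 2303, 2749 and 2194 units in hub2, against 1556, 1624 and 1734 units in WT (0.56 ± 0.12 SE, adjusted p = 0.0154), and an interaction of -1.60 ± 0.17 (SE, adjusted p = 3.62e-06). The glutaredoxin AT1G06830 had 786, 1029.9 and 943 units in hub2, against 479.9, 558 and 500.2 units in WT (0.84 ± 0.12 SE, adjusted p = 0.000385), and AT4G39675 had 1065, 1536 and 1373 units in hub2, against 849, 813 and 872 units in WT (0.63 ± 0.15 SE, adjusted p = 0.023). These 5 genes were higher in hub2 than in WT and lower in sdg8hub2 than in sdg8.

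Other genes passed in the same direction in both backgrounds. NDB4 had 54.9, 39.3 and 24.3 units in hub2, against 3.62, 4.48 and 23.4 units in WT, a difference of 2.37 ± 0.53 (SE, adjusted p = 0.0165) from a WT mean near the background, and its interaction was 0.23 ± 0.75 (SE, adjusted p = 0.91). AT5G51440 had 1.04 ± 0.19 (SE, adjusted p = 0.00345) in hub2 against WT and an interaction of 0.08 ± 0.27 (SE, adjusted p = 0.918). The iron peptide gene AT1G47400 had 927, 949 and 849 units in hub2, against 1562, 1228 and 1564 units in WT (-0.67 ± 0.10 SE, adjusted p = 0.000385), and an interaction of 0.02 ± 0.14 (SE, adjusted p = 0.964). PORB (0.57 ± 0.08 SE, adjusted p = 0.000333) and HTB4 (0.47 ± 0.11 SE, adjusted p = 0.0173) rose in hub2 as well. A p that misses the threshold does not show that both differences were equal, and the standard errors of these interactions give their precision.

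By list, 4 of the 12 retrograde genes rose in hub2 against WT and the interaction was called for 8 of them, 7 positive and 1 negative. The negative one was GSTU25 (-0.63 ± 0.16 SE, adjusted p = 0.0193), which rose in hub2 (0.77 ± 0.11 SE, adjusted p = 0.000342) and did not pass without SDG8. Of the 67 plastid-encoded genes, 0 fell or rose in hub2 against WT, with a median of 0.04, and the interaction was called for 9. Of the anthocyanin genes 0 of 6 were called in hub2 against WT and 1 for the interaction, of the iron genes 1 and 1 of 4, of the cold genes 1 and 3 of 7, and of the autophagy genes 0 and 2 of 10.

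**Figure D5:**
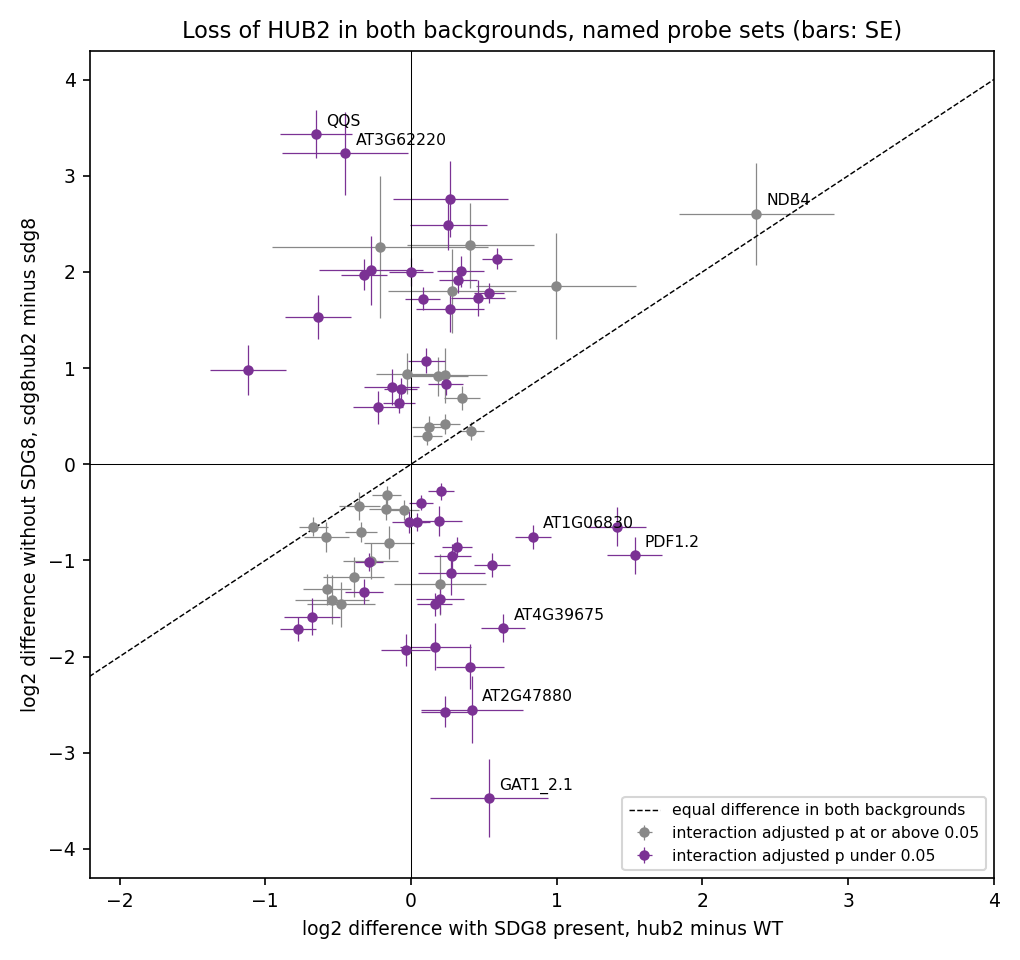
Log2 difference without SDG8 (sdg8hub2 minus sdg8, vertical axis) against that with SDG8 (hub2 minus WT, horizontal axis) for the named probe sets, with bars of 1 SE and a dashed line where both are equal. QQS lies at 3.43 and -0.65, NDB4 near the line at 2.60 and 2.37, and PDF1.2 at -0.95 and 1.53 (vertical value first).

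Genes that lie next to each other were compared last. Of 3859 adjacent pairs of protein-coding genes with both members tested, 72 pairs (1.87%) had both called, 47 in the same direction and 25 in opposite directions. With 13.1% of all named genes called, some neighbours are both called without any link between them. Whether 1.87% exceeds the share of pairs that unlinked genes would give was not tested, so the count does not show that called genes cluster. The 13.1% is a share of single genes and cannot be set against a share of pairs. In 6 pairs both members moved at least 2-fold, and all 6 moved the same way. These pairs were named after their values were seen. The higher pairs were AT1G65490 with AT1G65500, NDB3 with AT4G21500 (1.85 and 2.17, the second 0.68 as log2(intensity + 64) because its sdg8 mean was near the background), and AT5G60250 with AT5G60260 (2.76 and 1.21). The lower pairs were AT1G36380 with AT1G36390, AT1G30250 with AT1G30260 (-1.59 and -1.003), and the methyltransferase-like AT1G69523 with AT1G69526 (-1.26 and -1.01). AT1G30250 was dim, with 14.7, 23.1 and 21.0 units in sdg8hub2, and differed by -0.55 as log2(intensity + 64). AT1G69526 had overlapping groups and differed by -0.52 on that scale. Gene models of AT5G60250 and AT5G60260 overlap in the gene table, as do those of AT1G36380 and AT1G36390, so their signals may not be separate. Called genes were spread over all 5 chromosomes, with 12.1% to 14.3% of the named genes called on each.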

How the data were processed

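RNA of whole seedlings was hybridised to 12 arrays, 3 per group. The authors deposited linear intensities, made with MAS5 and the affy package per the submitters' processing notes, which give no version. On every array their mean after trimming 2% at each end was 500. The labels name labelling procedures of 2 manufacturers, and which was used is not settled, and nothing names scan dates or batches. The number of arrays limits the precision, and detection calls were not used.

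Intensities below the 1st percentile (1.18) were raised to it and taken as log2. Of 22810 probe sets, 64 controls were left out, and the 18196 with a mean above the 20th percentile (18.6 units, below which a group mean is called near the background) were kept. Group means over all 12 arrays were fitted in limma 3.58.1 (R 4.3.3) with an intensity trend; p-values are two-sided and adjusted by Benjamini-Hochberg at 0.05. Simulated data with known changes, built on the means and spreads of these arrays, were also put through the fit, and their outcome is not given here. Names came from the platform annotation, updated through RefSeq (TAIR10.1): 13513 probe sets had 1 symbol (13436 matched), 503 several and 8794 none. List counts use each gene's probe set with the highest mean (10115 genes).

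The genes described are the 15 highest and 15 lowest called differences with 1 symbol, non-overlapping groups and a higher mean above the median, up to 4 members with the smallest p from lists with at least 2 calls, the 8 highest and 8 lowest interactions, and their other probe sets. Those interactions were taken only among probe sets with 1 symbol that were also called for sdg8hub2 against sdg8. Other genes named in counts were picked after their values were seen. The members and the 41 lists, of which 33 had a measured gene, were chosen with earlier results of these data known. A chitinase matched as CHI and FROSTBITE1 matched as FRO1 were removed from the anthocyanin and iron lists after values were seen. Alternatives changed the floor, pseudocount, filter, scaling, variance model, array weights, replicate block, actin covariate and the arrays in the fit.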

Additional observations from a re-analysis of the deposited data

Results flagged for a closer look

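The effect of losing HUB2 differed between seedlings without and with SDG8, by the interaction term of limma's fit, for 1175 probe sets. The values below are log2 interactions (sdg8hub2 minus sdg8, minus the difference of hub2 and WT) of named genes whose interaction passed. All were named from calls in the comparison without SDG8, which is part of the interaction. Large values were thus favoured by the choice. The difference of hub2 and WT rests on arrays among which hub2 replicate 2 had the highest actin 3'-to-5' difference, and its part in these values was not tested beyond the counts without that array.

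A positive interaction, meaning a higher difference where SDG8 was missing, was found for QQS (4.09), AT3G62220 (3.68), AT5G60250 (2.49), AT5G09570 (2.29), AT3G28500 (2.29), AT2G04070 (2.23), AT1G65500 (2.17), AT2G17740 (2.101) and AT1G52100 (2.00). Smaller positive values were those of AT2G04050 (1.66), AT5G55620 (1.64), AT2G21640 (1.59), AT1G65490 (1.55), CYP71B5 (1.34), AT2G32020 (1.27) and AT2G41730 (1.24). Below 1 lay ATG8B (0.97), NRPE7 (0.94), UGT88A1 (0.86), CYP71B34 (0.82), XTH32 (0.73) and ATG8D (0.60).

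A negative interaction was found for GAT1_2.1 (-4.01), AT2G47880 (-2.97), AT1G36390 (-2.80), SWEET4 (-2.51), PDF1.2 (-2.48), AT4G39675 (-2.33), AT1G50140 (-2.06), PDF1.2b (-2.06) and AT1G36380 (-1.89). Values nearer to 0 were those of AT1G60590 (-1.62), COR15B (-1.60), AT2G30540 (-1.60), AT1G06830 (-1.59), rps19 (-1.40), AGL87 (-1.24), LTI30 (-1.18) and DFR (-1.005). The smallest sizes were AT2G19970 (-0.94), AT5G25475 (-0.91), EXPA15 (-0.78), COR27 (-0.73), psaB (-0.64), psbC (-0.59), PSBY (-0.49) and LHCB4.1 (-0.47).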

How the results depend on the processing

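The count for sdg8hub2 against sdg8 stayed within 1.5 times its value in every setting tried. It was 2003 to 2297 when 1 array of either group was left out, and the other settings gave 1781 (no intensity trend) to 2852 (actin covariate). For hub2 against WT, 519 probe sets became 127 without the intensity trend, 835 with array weights and 233 with the actin covariate, and 210 to 349 with 1 array left out. For the interaction, 1175 became 530 without the trend and 805 to 1146 with 1 array left out, and its share of higher calls, 47.2%, was 55.7% after median centring. Over all probe sets tested, samples with the same replicate number hardly deviated together. Correlations were 0.00333, 0.00225 and 0.017 between sdg8hub2 and sdg8, and 0.00176, -0.00674 and 0.0363 between hub2 and WT. Values over all probe sets cannot exclude a link that acts on few genes, so whether the numbers pair the arrays is not settled. With a replicate block the 3 counts were 2543, 448 and 1083, and PSBY, ATG8C and GSTU16 were among the named genes that lost their call. Of 74 named probe sets called, 56 were called under all settings that tested them (up to 18), 18 lost the call under at least 1, and 0 reversed. Dim probe sets limit the folds, since signals near the background have wide errors. The cause of each shift was not tested.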

Other observations

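Some gene groups outside the lists above were assembled after their values had been seen, so their counts are a description only. Enzymes of amino acid breakdown, some of which work in mitochondria and supply electrons when sugars are scarce, stood lower in sdg8hub2 than in sdg8. Of 15 measured, 7 had an adjusted p under 0.05 (limma), all negative, where 6.9% of the 10115 named genes fell. The median difference was -0.29, beside -0.01 over all probe sets. MCCA, a subunit of methylcrotonyl-CoA carboxylase, had 959, 978 and 892 units in sdg8hub2, against 1602, 1673 and 1674 units in sdg8 (-0.81), and IVD, isovaleryl-CoA dehydrogenase, had 767, 762 and 697 units in sdg8hub2, against 1388, 1172 and 1385 units in sdg8 (-0.82). MGL, a methionine gamma-lyase, differed by -0.93, AT5G09300, of the branched-chain keto acid dehydrogenase, by -0.79, ALDH7B4 by -0.63, ETFQO by -0.60 and MCCB by -0.42. In hub2 against WT, 0 of the 15 were called, and the interaction was called for 4.

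Of 7 nuclear genes for the Calvin cycle and photorespiration, 6 had an adjusted p under 0.05, all negative, where 6.9% of the named genes fell. Their median was -0.34, beside -0.01 over all probe sets. Without the intensity trend the count of lower genes among these 7 was 2. PRK, phosphoribulokinase, had 13379, 11841 and 13064 units in sdg8hub2, against 16979.5, 18739.7 and 17631 units in sdg8 (-0.48), and HPR, the hydroxypyruvate reductase of photorespiration, differed by -0.35. Of 8 genes of the unfolded protein response, 1 was higher and 1 lower. The higher one was BZIP60, a transcription factor of that response, with 2059, 2322 and 1945 units in sdg8hub2, against 803, 792 and 818 units in sdg8 (1.39, and 0.03 in hub2 against WT), and the lower one was CRT1b, a calreticulin (-0.38). Among single genes, CCS, the copper chaperone of superoxide dismutase, differed by 1.54 ± 0.15 (SE, adjusted p = 4.20e-07) and NGA1, a B3 factor of leaf shape, by 1.21 ± 0.31 (SE, adjusted p = 0.0105).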
